A study of Saccharum hybrid cultivar with 68 samples.

Results

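The miR166 and miR165 family is a group of conserved plant microRNAs (miRNAs, short RNAs that direct the cutting or silencing of mRNAs they match). Its members were taken as every entry of the small RNA table whose name starts with miR166- or miR165-, which gave 5 of 844 entries: miR166-y, miR166-z, miR165-y, miR166-x and miR165-x. They were followed in 24 small RNA libraries of sugarcane (Saccharum hybrid cultivars), with 3 libraries for each of 8 groups: stem and leaf of the genotypes ROC22 and GT86-887, each at the late and the early stage of sucrose accumulation, the period in which cane stores sugar in the stem. The degradome file, from 8 libraries, gave the unigenes (assembled transcripts) paired with these entries, and 36 mRNA libraries gave the levels of those unigenes at the early, middle and late stages, again with 3 libraries per genotype, tissue and stage. The series description says that the genotypes contrast in sucrose content, and the labels name no treatment, transgene or plant age. Whether libraries of 1 group come from separate plants is not in the labels, so p-values reflect the spread among these libraries alone, and that spread may be technical.

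In flowering plants miR166 and miR165 are known for guiding the cleavage of mRNAs of the class III HD-ZIP transcription factors, such as REVOLUTA, PHABULOSA and PHAVOLUTA in Arabidopsis. Those factors specify the upper side of the leaf, pattern the vascular bundles and keep the shoot meristem active, and the miRNA keeps them out of the lower side of the leaf. A miRNA is cut from a hairpin as a duplex, of which the guide strand is usually retained and the opposite strand is usually degraded.

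The sequences are shown because they divide the members into 2 seed groups. They are as deposited, 5′ to 3′ with T for U, and capitals mark bases 2 to 8, the seed. The first lines are the members with the seed CGGACCA, and the last lines are those with the seed GAATGTT.
miR166-y: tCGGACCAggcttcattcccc
miR166-z: gCGGACCAggcttcattcccc
miR165-y: tCGGACCAggcttcatgcccc
miR166-x: gGAATGTTgtctggctcgggg
miR165-x: gGAATGTTgtctgggtcgagg

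All 5 sequences were 21 nt long. Counting positions from 1 at the 5′ end, miR166-z differed from miR166-y by T1G and miR165-y differed from it by T17G. The entry miR165-x differed from miR166-x by C15G and G19A. Laid antiparallel to miR166-y with an offset of 2 bases, miR166-x formed 13 Watson-Crick pairs and 3 G-U pairs over 19 facing positions, the arrangement of the opposite strands of a duplex. Reads of entries that differ by 1 base can be exchanged by a sequencing or trimming error, and how the authors assigned such reads is a step not given in the sources used here.

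Over all libraries the table held 7581678 counts of miR166-y, 86115 of miR166-x, 20137 of miR165-y, 19456 of miR166-z and 99 of miR165-x. The first 4 had counts in 24 of 24 libraries and miR165-x in 14 of 24. Small RNA library totals ran from 183654 to 1374497 counts in stem and from 640674 to 1632186 in leaf. Profiles over all entries put each library nearest to other libraries of its own tissue. One library stood apart from its group: ROC22 stem late replicate 3 correlated at 0.903 with its own group and at 0.952 with ROC22 stem early libraries. Values without it are given beside the results in late ROC22 stem. Without it, stem minus leaf over all libraries was -5.69 for miR166-y and -5.53 for miR166-x, against -5.82 and -5.51 with it (log2).

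The guide strand miR166-y was far less abundant in stem than in leaf. In late ROC22 stem it made up 3.77%, 4.04% and 2.71% of the library counts, and in early ROC22 stem 2.55%, 3.61% and 2.96%. In late GT86-887 stem the shares were 1.27%, 1.36% and 1.93%, and in early GT86-887 stem 1.94%, 5.04% and 2.19%. The spread within stem was therefore wide, with the highest library in early GT86-887 stem and the lowest in late GT86-887 stem. A share also depends on the other entries: miR396-x was the most abundant entry in every stem library, at 32.5% to 72.9% of counts.

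In leaf, miR166-y was the most abundant of all entries in 12 of 12 libraries. It made up 64.9%, 64.2% and 70.8% of the counts in late ROC22 leaf and 51.5%, 67.4% and 58.4% in early ROC22 leaf. In late GT86-887 leaf the shares were 67.7%, 62.7% and 63.7%, and in early GT86-887 leaf 69.1%, 59.6% and 65.4%. In stem it ranked between 4 and 9. Counting error was small beside this spread: the 95% Wilson interval of a library's share extended at most 0.0865 percentage points to either side in stem and 0.118 in leaf, which covers counting error only.

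Ordered by the group mean of miR166-y, the 4 leaf groups came first, with late ROC22 leaf highest at 66.6% ± 3.61 and early ROC22 leaf lowest at 59.1% ± 7.98 (SD, n = 3 each). Each leaf group overlapped its neighbour in that order. The stem groups followed without overlap, from late ROC22 stem at 3.51% ± 0.704 through early GT86-887 stem at 3.06% ± 1.72 and early ROC22 stem at 3.04% ± 0.536 to late GT86-887 stem at 1.52% ± 0.356 (SD, n = 3 each). The libraries of late GT86-887 stem all lay below those of early ROC22 stem, while the other stem neighbours overlapped.

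All 5 members were lower in stem than in leaf. With edgeR's quasi-likelihood test and Benjamini-Hochberg adjustment, 5 of 5 members were lower at an adjusted p below 0.05, the threshold used throughout, where 30.5% of the 285 entries tested were lower and 71.9% were called in either direction. The log2 difference of miR166-y, stem minus leaf, was -5.82 ± 0.23 (SE), 56.5-fold, with an adjusted p of 3.77e-21. That difference rests on TMM scaling, which assumes that most entries do not change. Scaled to library totals alone it was -4.59, or 24.02-fold, and the median of all tested entries was 1.82, against 0.61 with TMM. In these bulk samples fewer cells making the miRNA and less of it per cell cannot be told apart.

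The opposite strand miR166-x moved with the guide. It had 70.8, 346 and 1122 CPM in stem (counts scaled to a common library total, with 10000 CPM for 1% of a library; lowest, median and highest of 12), against 4461, 7036 and 13004 CPM in leaf. No stem library reached the lowest leaf library. The log2 difference was -5.51 ± 0.25 (adjusted p = 1.55e-19, edgeR).

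The single-base variants miR166-z and miR165-y showed the same split. The entry miR166-z had 31.9, 115 and 297 CPM in stem, against 1192, 1716 and 1839 CPM in leaf (lowest, median and highest of 12 each). The entry miR165-y had 13.8, 68.8 and 241 CPM in stem, against 870, 1755 and 2339 CPM in leaf. Neither overlapped between tissues, and the log2 differences were -5.07 ± 0.25 for miR166-z and -5.64 ± 0.30 for miR165-y (adjusted p = 9.24e-19 and 1.17e-17, edgeR).

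The rare opposite strand miR165-x summed to 2 counts over the 12 stem libraries, against 97 over the 12 leaf libraries. It was listed at 0 in 10 stem libraries, which at their depths allows up to 2.18 to 12.2 CPM per library (3 counts). Leaf libraries held 2 to 17 counts, or 2.94 to 15.8 CPM, so the limits in stem reach into the range of leaf. The test called it lower in stem (adjusted p = 1.24e-08), and no fold change is given at such counts.

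**Figure D1:**
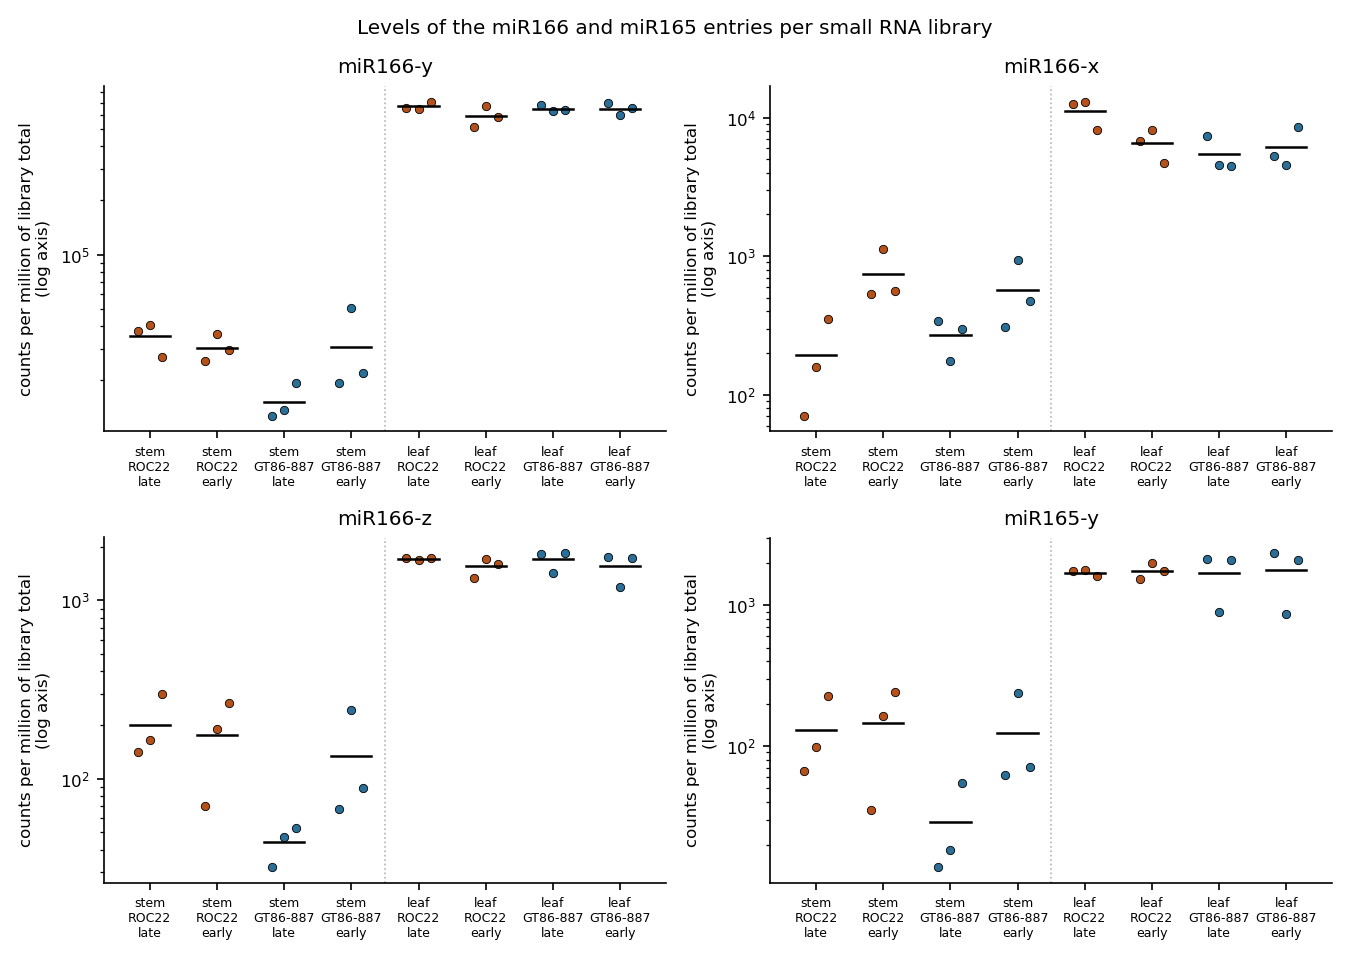
Levels of miR166-y, miR166-x, miR166-z and miR165-y in 24 small RNA libraries, in CPM of the library total on log axes; points are libraries, bars are means of 3, and the dotted line parts stem from leaf. Every stem library lies below every leaf library for all 4 entries, with miR166-y at 1.27% to 5.04% of counts in stem and 51.5% to 70.8% in leaf.

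The tissue difference was present within each genotype and stage. The entry miR166-y differed by -4.96 ± 0.44 (log2, stem minus leaf) in late ROC22, -6.36 ± 0.47 in early ROC22, -6.08 ± 0.46 in late GT86-887 and -5.88 ± 0.46 in early GT86-887. Scaled to library totals the values were -4.25, -4.28, -5.41 and -4.40 in the same order, so the ranking of the contrasts depended on the scaling. All 5 members were called lower in each of these 4 contrasts, in which 54.7%, 52.6%, 49.5% and 48.4% of entries were called in the same order and 24.2%, 23.9%, 22.8% and 25.3% were lower. DESeq2 called 4 of 5 in early ROC22, without miR165-x, and all 5 in the others, and with library totals miR165-x in early ROC22 had an adjusted p of 0.398. Without ROC22 stem late replicate 3 the late ROC22 values were -4.53 ± 0.37 for miR166-y and -7.10 ± 0.59 for miR166-x.

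Opposite strand and guide did not keep the same order across these contrasts. In late ROC22 miR166-x differed by -6.95 ± 0.53, more than the guide, while in early ROC22 it differed by -5.27 ± 0.49, in late GT86-887 by -4.98 ± 0.48 and in early GT86-887 by -4.84 ± 0.48, each less than the guide. The test of whether stem minus leaf differed between genotypes called 0 of 5 members with edgeR (10.2% of entries were called). At an unadjusted p below 0.05 it found 1 (62 of 285 entries), miR166-x at -1.20 ± 0.41 (ROC22 minus GT86-887, adjusted p = 0.0585). DESeq2, which called 38 of 304 entries, called that member (log2 -1.12, adjusted p = 0.0374). Without ROC22 stem late replicate 3, where 12.3% of 325 entries were called, edgeR called it too, at -1.27 ± 0.39 (adjusted p = 0.0256). It was also called without GT86-887 stem early replicate 1 (-1.42, adjusted p = 0.0416) or GT86-887 stem late replicate 3 (-1.40, adjusted p = 0.0352), and at -2.29 without replicate 3 of every group (adjusted p = 0.00369). In all miR166-x was called in 4 of 27 leave-outs, with adjusted p values of 0.00369 to 0.339, while the number of all entries called ran from 12 to 42. Scaled to library totals the difference was -0.63 (adjusted p = 0.470).

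Between stages, stem minus leaf also differed for 0 of 5 members with edgeR, where 17.5% of entries were called. One member, miR166-x, was among the 70 of 285 entries with an unadjusted p below 0.05 (late minus early -0.91 ± 0.41, adjusted p = 0.143). It was called by DESeq2 at -1.30 (adjusted p = 0.0118, 34 of 337 entries called). With library totals it was called at -1.82 (adjusted p = 0.0204, 28 of 285 called). The sign for miR166-y depended on the scaling, at 0.60 with TMM (adjusted p = 0.326) and -0.49 with library totals (adjusted p = 0.359). Without ROC22 stem late replicate 3, where 19.1% of 325 entries were called, the TMM value was 0.81 ± 0.27 and was called (adjusted p = 0.0326). It was also called at 1.15 without replicate 3 of every group (adjusted p = 0.0440). Over the 27 leave-outs the number of all entries called ran from 14 to 62.

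**Figure D2:**
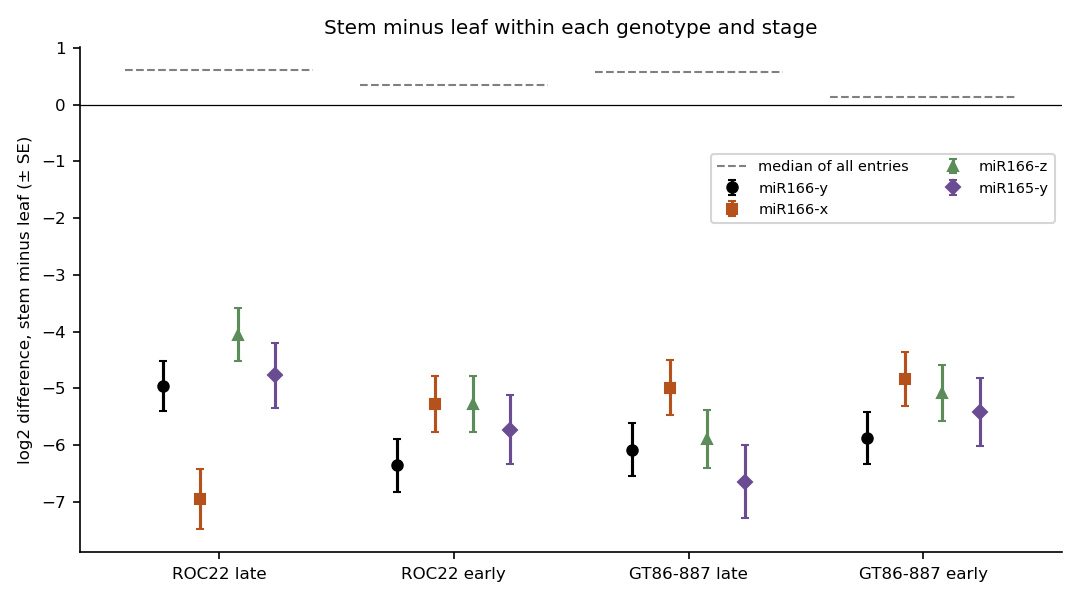
Log2 differences, stem minus leaf, within each genotype and stage from the 24-library fit; symbols are miR166-y, miR166-x, miR166-z and miR165-y, bars are SE, and dashes mark the median of all 285 entries tested. All values lie between -6.95 and -4.06, and late ROC22 is the contrast in which miR166-x lies below miR166-y.

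Within leaf, the guide and its single-base variants passed no test of genotype or stage. For ROC22 minus GT86-887, 1 of 5 members was called, higher, at the late stage (32.2% of 180 entries were called and 17.8% were higher) and 0 of 5 at the early stage (17.2%), with 0 at an unadjusted p below 0.05 and 0 by DESeq2 at the early stage. For late minus early, 0 of 5 were called in ROC22 (14.4%), with 2 at an unadjusted p below 0.05, miR166-x and miR165-x, and 0 by DESeq2. In GT86-887 0 of 5 were called (28.9%), with 0 at an unadjusted p below 0.05 and 0 by DESeq2. The genotype-by-stage test called 0 of 5 (6.11%), with 0 at an unadjusted p below 0.05 and 0 by DESeq2. Of all 180 entries, 67 had an unadjusted p below 0.05 for early ROC22 minus GT86-887, and 31 for genotype by stage. For late minus early, 58 did in ROC22 and 66 in GT86-887.

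The member that was called was the opposite strand miR166-x. It had 12581, 13004 and 8100 CPM in late ROC22 leaf, against 7340, 4564 and 4461 CPM in late GT86-887 leaf, so that the groups did not overlap. At the early stage it had 6731, 8162 and 4684 CPM in ROC22 leaf, against 5246, 4519 and 8543 CPM in GT86-887 leaf, and the groups overlapped. The log2 difference was 1.14 ± 0.38 at the late stage (2.20-fold, adjusted p = 0.0269, edgeR) and 0.32 ± 0.37 at the early stage (adjusted p = 0.587), and the test of the difference between stages gave 0.82 ± 0.53 (adjusted p = 0.541). The late call did not withstand leaving out libraries: it was kept in 2 of 15 leave-outs, with log2 differences of 0.64 to 1.55 and adjusted p values of 0.00622 to 0.276.

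Among leaf libraries, replicate 2 of GT86-887 stood apart for miR165-y at both stages. It had 894 CPM in late and 870 CPM in early GT86-887 leaf, where the other 4 libraries of that genotype had 2079 to 2339 CPM. The entry miR166-z was lower in those libraries too, at 1432 CPM in late and 1192 CPM in early leaf, against 1737 to 1839 CPM in the other 4. The guide did not share this drop, with 62.7% and 59.6% of counts there.

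Within stem, edgeR called the single-base variants higher in ROC22 than in GT86-887 at the late stage. The call was kept in 11 of 15 leave-outs for miR166-z and in 10 of 15 for miR165-y. The entry miR166-z had 140, 164.7 and 297 CPM in late ROC22 stem, against 31.9, 47.3 and 52.7 CPM in late GT86-887 stem. The entry miR165-y had 66.7, 97.7 and 227 CPM in late ROC22 stem, against 13.8, 18.2 and 55.0 CPM in late GT86-887 stem. Neither entry overlapped between genotypes, and both rest on 13 to 118 counts per library. The log2 differences were 1.55 ± 0.51 for miR166-z (adjusted p = 0.0268, edgeR) and 1.65 ± 0.59 for miR165-y (adjusted p = 0.0406, edgeR). Without ROC22 stem late replicate 3, where 43% of 244 entries were called, they were 1.88 ± 0.48 and 1.76 ± 0.61 (adjusted p = 0.00516 and 0.0280).

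These were 2 of the 4 members tested in stem, miR165-x having too few counts, where 30.7% of 215 entries were called and 14.4% were higher. The guide miR166-y differed by 0.79 ± 0.46 (adjusted p = 0.213), although its shares of 3.77%, 4.04% and 2.71% in late ROC22 stem lay above the 1.27%, 1.36% and 1.93% in late GT86-887 stem. Scaled to library totals, where 53 of 215 entries were called, the difference was 1.21 (adjusted p = 0.0461). Without ROC22 stem late replicate 3, where 43% of 244 entries were called, it was 1.48 ± 0.33 with TMM (adjusted p = 0.00188). The opposite strand differed the other way, at -1.14 ± 0.47 (adjusted p = 0.0766), with 70.8, 158 and 353 CPM in late ROC22 stem and 339, 175 and 300.04 CPM in late GT86-887 stem. Those groups overlapped. The difference was -0.49 with library totals (adjusted p = 0.612) and -1.13 without ROC22 stem late replicate 3 (adjusted p = 0.0563). Without replicate 3 of every group it was -1.61 and was called (adjusted p = 0.0373). Over the 15 leave-outs of this contrast, the number of all entries called ran from 26 to 105.

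The call of miR165-y was lost with library totals (log2 2.20, adjusted p = 0.0593) and without ROC22 stem late replicate 2 (1.71, adjusted p = 0.0579), GT86-887 stem late replicate 1 (1.33, adjusted p = 0.158) or replicate 2 (1.64, adjusted p = 0.0973), and without replicate 1 (adjusted p = 0.209) or 2 (adjusted p = 0.224) of every group. The call of miR166-z was lost without GT86-887 stem late replicate 1 (1.33, adjusted p = 0.0980) or replicate 3 (1.43, adjusted p = 0.0895), and without replicate 1 (adjusted p = 0.224) or 2 (adjusted p = 0.0696) of every group. At the early stage 0 of 4 members were called between genotypes (17.7% of entries), with 0 at an unadjusted p below 0.05 (65 of 215 entries) and 0 by DESeq2.

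For late minus early in stem, 0 of 4 members were called in ROC22 (6.98% of entries) and 0 of 4 in GT86-887 (0.0%). In ROC22 52 of 215 entries had an unadjusted p below 0.05, of which 3 were members. These were miR166-y at 1.22 ± 0.47, miR166-z at 1.08 ± 0.50 and miR166-x at -1.14 ± 0.47. Their adjusted p values were 0.114, 0.187 and 0.136, and DESeq2 called 0 members (26 of 272 entries). With library totals these differences were 0.21, 0.19 and -1.94, none called. In GT86-887, where 27 of all entries had an unadjusted p below 0.05 and DESeq2 called 2, of which 0 were members, 1 member, miR165-y, had an unadjusted p below 0.05 (log2 -1.35 ± 0.59, adjusted p = 0.304). Without ROC22 stem late replicate 3, miR166-y was called higher in late than in early ROC22 stem (1.77 ± 0.33, adjusted p = 0.000904), where 30.7% of 244 entries were called. Without replicate 3 of every group, miR166-y (1.63, adjusted p = 0.0315) and miR166-z (1.65, adjusted p = 0.0437) were called. Over the 15 leave-outs of late minus early in ROC22 stem, the number of all entries called ran from 0 to 75.

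The genotype-by-stage test in stem, which asks whether late minus early differed between ROC22 and GT86-887, also turned on that library. With all libraries 0 of 4 members were called (0.0% of entries, 35 of them at an unadjusted p below 0.05), with 3 at an unadjusted p below 0.05 and 0 by DESeq2. Without ROC22 stem late replicate 3, miR166-y (2.12 ± 0.44, adjusted p = 0.00398) and miR166-z (2.10 ± 0.65, adjusted p = 0.0263) were called, and 27.9% of all entries tested were called as well. Without replicate 3 of every group miR165-y was called (3.14, adjusted p = 0.0334, against 2.01 with all libraries). Over the 15 leave-outs of this test, the number of all entries called ran from 0 to 68.

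Ratios between members within a library do not depend on the scaling between libraries. For each 1000 counts of the guide, late ROC22 stem held 1.88, 3.90 and 13.04 counts of miR166-x and early ROC22 stem 21.1, 31.1 and 18.9. Late GT86-887 stem held 26.6, 12.9 and 15.6, and early GT86-887 stem 15.9, 18.5 and 21.6. The 3 late ROC22 stem libraries thus lay below all others of their genotype in stem, and of the 3, replicate 3, the library that stood apart, came nearest to the early ones.

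In ROC22 stem the mean ratio of miR166-x to miR166-y was 5.04-fold lower at the late than at the early stage (log2 -2.33), and in GT86-887 stem it was 1.06-fold lower (-0.09). Exact 2-sided permutation tests with 3 libraries against 3 gave p = 0.1 in ROC22 stem, the smallest p that this design allows, and p = 0.8 in GT86-887 stem. Without ROC22 stem late replicate 3 the ROC22 ratio was 8.51-fold lower (-3.09), and without late replicate 1 it was 3.24-fold lower (-1.70), each with an exact permutation p = 0.2, the smallest that 2 libraries against 3 allow. In GT86-887 stem the sign turned with the library left out, from -0.39 to 0.13. Over both genotypes the difference was -1.21 (exact permutation p = 0.0476 with 6 libraries against 6), which did not pass after adjustment over the 15 ratio comparisons made (adjusted p = 0.238). Without GT86-887 stem late replicate 1 it was -1.52 and passed (adjusted p = 0.0325).

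In leaf the ratio of miR166-x to miR166-y ran from 7.01 to 20.3 per 1000. Late ROC22 leaf had 19.4, 20.3 and 11.4 and early ROC22 leaf 13.1, 12.1 and 8.02, against 10.8, 7.27 and 7.01 in late GT86-887 leaf and 7.59, 7.58 and 13.1 in early GT86-887 leaf. The genotype difference in leaf, ROC22 minus GT86-887 over both stages, was 0.63 on the log2 scale (exact permutation p = 0.0303 with 6 libraries against 6, adjusted p = 0.227).

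The ratio of miR166-z to the guide was the one relation of the 15 that passed after adjustment. It ran from 2.51 to 10.9 per 1000 with a median of 3.90 in stem, against 2.001 to 2.89 with a median of 2.62 in leaf. The tissues overlapped, and stem minus leaf was 0.76 on the log2 scale, 1.69-fold (2-sided permutation test with 12 libraries against 12, p = 1e-04, adjusted p = 0.0015). Counts of miR166-z were 23 to 118 per library in stem and 975 to 2117 in leaf, so the stem ratios carry more counting error.

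The ratio of miR165-y to the guide, added after its values were seen, ran from 1.09 to 8.38 per 1000 in stem and from 1.43 to 3.38 in leaf (stem minus leaf 0.18 on the log2 scale, permutation p = 0.566, adjusted p = 0.600). In stem over both stages, ROC22 minus GT86-887 was 0.61 (log2) for the ratio of miR166-z to the guide and 0.52 for that of miR165-y. Exact permutation tests with 6 libraries against 6 gave p = 0.110 and 0.370 (adjusted p = 0.414 and 0.600). The 2 variants were high in the same ROC22 stem libraries. Replicate 3 at the late stage had 10.9 per 1000 of miR166-z and 8.38 of miR165-y, and replicate 3 at the early stage had 8.93 and 8.15, while replicate 1 at the early stage had 2.75 and 1.37.

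**Figure D3:**
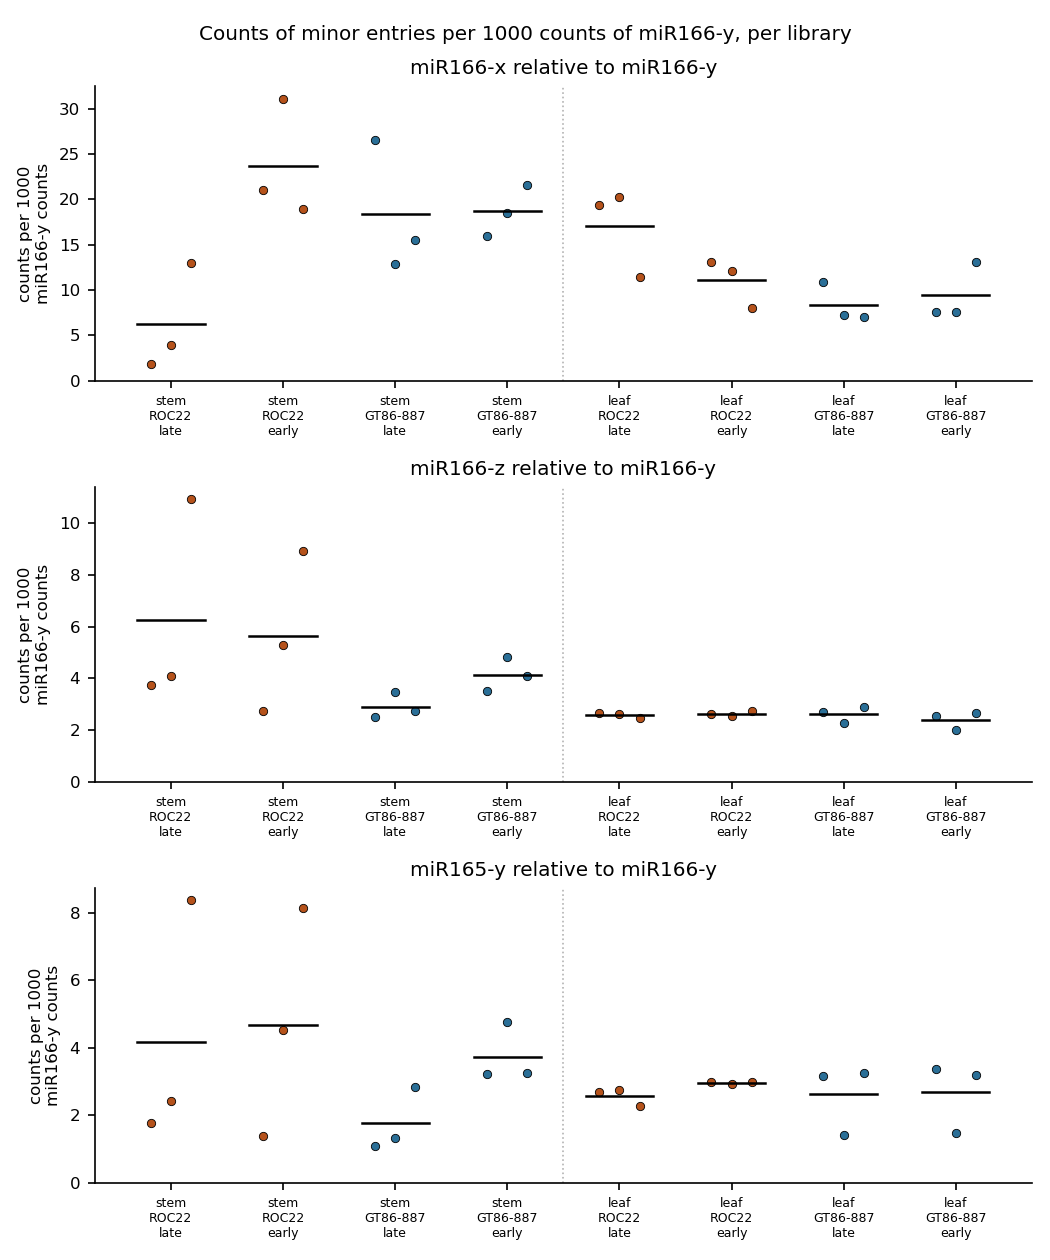
Counts of miR166-x, miR166-z and miR165-y per 1000 counts of miR166-y in each of 24 libraries; points are libraries, bars are means of 3, and the dotted line parts stem from leaf. For miR166-x the late ROC22 stem libraries are at 1.88, 3.90 and 13.04, below the early ROC22 stem libraries at 18.9 to 31.1, and for miR166-z the leaf libraries are at 2.001 to 2.89.

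Across the 8 group means of log2 CPM, each profile centred on its own mean, the entries closest to miR166-y included 3 members of its own family. The root mean square difference was 0.35 for miR165-y, 0.47 for miR166-z and 0.72 for miR166-x, the 3 closest of 284 entries, while miR165-x, with few counts, was 35th at 1.87. The median over all entries was 3.23. Entries with other seeds came close as well, with miR160-x 4th at 0.73, a predicted entry without a miR number 6th at 0.83 and miR1432-z 7th at 0.94, so a pattern like this was not particular to the family. The family miR160 is known to target auxin response factors.
miR160-x: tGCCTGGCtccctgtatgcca
predicted entry: tGGCACGAcaaaaagctcgca
miR1432-z: cGCTCAGGaaagatgacacc

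Other families known for leaf polarity, vascular patterning and organ growth did not share one direction. Of 17 entries of miR390, miR160, miR164, miR319, miR394 and miR396, 13 were tested between tissues, of which 10 were higher and 3 lower in stem (median 1.91, against 0.61 for all entries, of which 71.9% were called). The lower ones were miR160-x (-5.39 ± 0.28), miR390-x (-5.51 ± 0.42) and miR160-z (-3.28 ± 0.26), where miR390 is known to trigger the small RNAs that restrict auxin response factors. Of the higher ones, miR319-y, of the family that targets TCP transcription factors, had the smallest adjusted p (5.27 ± 0.27, adjusted p = 3.24e-18).

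Of these entries, 12 were tested in stem and 2 were higher and 1 lower in late ROC22 than in late GT86-887 stem, where 30.7% of all entries were called. The entry miR160-x was higher there by 2.48 ± 0.55 (adjusted p = 0.00195), and miR394-x, of the family that targets the F-box mRNA LCR in Arabidopsis, was lower by -1.94 ± 0.49 (adjusted p = 0.00513). In leaf 10 were tested, and in late ROC22 2 were higher and 2 lower than in late GT86-887 (32.2% of all entries called), with miR160-x (1.40 ± 0.38, adjusted p = 0.00754) and miR396-y (-1.62 ± 0.49, adjusted p = 0.0150) at the smallest adjusted p in each direction. For late minus early, miR390-x was lower in GT86-887 leaf (-1.26 ± 0.40, adjusted p = 0.0223), 1 of 10 where 28.9% of all entries were called. In ROC22 leaf 0 of 10 were called (14.4% of all entries), in ROC22 stem 0 of 12 (6.98%) and in GT86-887 stem 0 of 12 (0.0%).

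The degradome file, which counts RNA fragments with a free 5′ monophosphate, the kind that cleavage leaves, held 9 of its 871 pairs for the family. They joined miR166-y, miR166-z and miR165-y with the same 3 of 752 unigenes, c138164.graph_c0, c135176.graph_c1 and c138610.graph_c0. The tags of a unigene were identical for every entry paired with it, so they cannot be assigned to a member, nor to the family. No pair was listed for miR166-x or miR165-x. The files give these unigenes no gene name or annotation, and whether they encode HD-ZIP factors was not examined here.

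The unigene c138164.graph_c0 carried nearly all of its tags in leaf. Stem libraries of ROC22 had 1 tag (title code HES) and none (HLS), and those of GT86-887 had 2 (LES) and none (LLS). Leaf libraries of ROC22 had 33 (HEL) and 61 (HLL), and those of GT86-887 had 23 (LEL) and 19 (LLL). It ranked 6th to 18th among the 273 to 346 unigenes with tags in a leaf library.

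Leaf thus held 136 of its 139 tags, or 97.8%. Over the 177 unigenes with at least 10 tags the median leaf share was 82.4%, and 38 of them, itself included, had a share at least as high. There is 1 library for each combination, with no replicate check and no depth given in the file. For 4 of the 8 libraries the title carries the code for late while the growth phase label says middle, so stages were not compared. The unigene c135176.graph_c1 had 3 tags in HEL and 9 in HLL, c138610.graph_c0 had 6 in HEL, and neither had tags in stem or in GT86-887.

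The mRNA of c138164.graph_c0 was higher in stem, where miR166-y was lower. It had 133, 222 and 416 CPM in stem, against 17.8, 28.6 and 53.7 CPM in leaf (lowest, median and highest of 18 each), with no overlap. Stem minus leaf was 2.59 ± 0.09 on the log2 scale, 6.02-fold (adjusted p = 7.14e-21, edgeR). All 3 paired unigenes were called between tissues, where 74.0% of the 42119 unigenes tested were called, so a call by itself sets them little apart.

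The other paired unigenes differed less between tissues and not in one direction. The unigene c138610.graph_c0 was lower in stem, at 0.31, 1.36 and 3.06 CPM, against 1.39, 2.12 and 3.73 CPM in leaf (log2 -0.82 ± 0.16, adjusted p = 3.44e-05), with 7 to 73 counts per library in stem and 34 to 67 in leaf. The unigene c135176.graph_c1 had 19.3, 26.6 and 38.7 CPM in stem, against 17.5, 22.1 and 30.2 CPM in leaf. Its difference of 0.13 ± 0.05 (adjusted p = 0.0156) was lost with DESeq2 (0.08, adjusted p = 0.138), with no filter on low counts (adjusted p = 0.214) and without replicate 1 (adjusted p = 0.0844) or replicate 2 (adjusted p = 0.209). With library totals it was 0.33 (adjusted p = 3.49e-07), and on deposited FPKM it was 0.30 (permutation p = 0.00168 with 18 libraries against 18). Per length, the deposited FPKM medians in stem were 144 for c138164.graph_c0, 10.9 for c135176.graph_c1 and 1.10 for c138610.graph_c0, against leaf medians of 19.2, 8.94 and 1.87.

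Between genotypes, c138164.graph_c0 was lower in leaf of ROC22 than of GT86-887, and was the 1 of 3 unigenes called there (51.5% of 37678 unigenes). It had 17.8, 24.5 and 28.6 CPM in ROC22 leaf, against 28.4, 45.0 and 53.7 CPM in GT86-887 leaf (lowest, median and highest of 9 each). The overlap came from 1 library, the lowest of GT86-887. The log2 difference was -0.82 ± 0.12 (adjusted p = 3.06e-05, edgeR). In stem 0 of 3 were called (55.0% of 36199), with 0 at an unadjusted p below 0.05 (21702 of 36199 unigenes) and 0 by DESeq2. There c138164.graph_c0 had 133, 211 and 302 CPM in ROC22, against 164, 234 and 416 CPM in GT86-887 (log2 -0.11 ± 0.13, adjusted p = 0.487).

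The genotype difference of c138164.graph_c0 was larger in leaf than in stem when tested directly on counts, a comparison added after the values were seen. Stem minus leaf was greater in ROC22 than in GT86-887 by 0.77 ± 0.18 (adjusted p = 0.00180, edgeR), the 1 of 3 unigenes called where 23.3% of all were called. Without replicate 3 the call was lost (0.72, adjusted p = 0.0994). The deposited FPKM of c138164.graph_c0 were not proportional to its counts, with 0.448 to 0.925 FPKM per CPM over 36 libraries. The range was 0.381 to 0.448 for c135176.graph_c1 and 0.713 to 1.19 for c138610.graph_c0. On FPKM the leaf difference was -0.37 (exact permutation p = 0.000535 with 9 libraries against 9). The difference between tissues was 0.36 (p = 0.0837, permutation of genotypes within each tissue of 18 libraries). That permutation leaves stage out, unlike the edgeR fit, so the tests differ in more than the measure.

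Among the ROC22 stem groups c138164.graph_c0 had its highest mean at the early and its lowest at the late stage. It had 302, 237 and 267 CPM in early, 202, 257 and 211 CPM in middle and 163, 133 and 182 CPM in late ROC22 stem. In GT86-887 stem it had 283, 290 and 234 CPM in early, 164, 416 and 328 CPM in middle and 197, 168 and 179 CPM in late libraries. Late and early did not overlap in either genotype, while the middle libraries of GT86-887 spread over both.

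Late minus early in stem was -0.88 ± 0.22 in ROC22 (adjusted p = 0.0119, 18.2% of unigenes called) and -0.70 ± 0.22 in GT86-887 (adjusted p = 0.0417, 15.8% called), with 1 of 3 unigenes called in each. The ROC22 call was lost without replicate 2 (adjusted p = 0.0765) or replicate 3 (adjusted p = 0.130). The GT86-887 call was lost with library totals (-0.57, adjusted p = 0.115), without replicate 2 (adjusted p = 0.223) and without replicate 3 (adjusted p = 0.244).

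In leaf c138164.graph_c0 passed no test between stages, with log2 differences, late minus early, of 0.14 ± 0.21 in ROC22 (adjusted p = 0.681) and 0.37 ± 0.20 in GT86-887 (adjusted p = 0.212). In ROC22 leaf 0 of 3 unigenes were called (28.3%), with 2 at an unadjusted p below 0.05 (14642 of 37678 unigenes) and 0 by DESeq2. In GT86-887 leaf 2 of 3 were called (25.3%), c135176.graph_c1 higher at the late stage (0.40 ± 0.12, adjusted p = 0.0173) and c138610.graph_c0 lower (-0.76 ± 0.24, adjusted p = 0.0308). Both calls were lost without any one replicate, with adjusted p values of 0.0688 to 0.181 for c135176.graph_c1 and 0.0980 to 0.250 for c138610.graph_c0. They were also lost with no filter on low counts (adjusted p = 0.249 and 0.264), and that of c135176.graph_c1 with library totals (0.31, adjusted p = 0.0833).

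**Figure D4:**
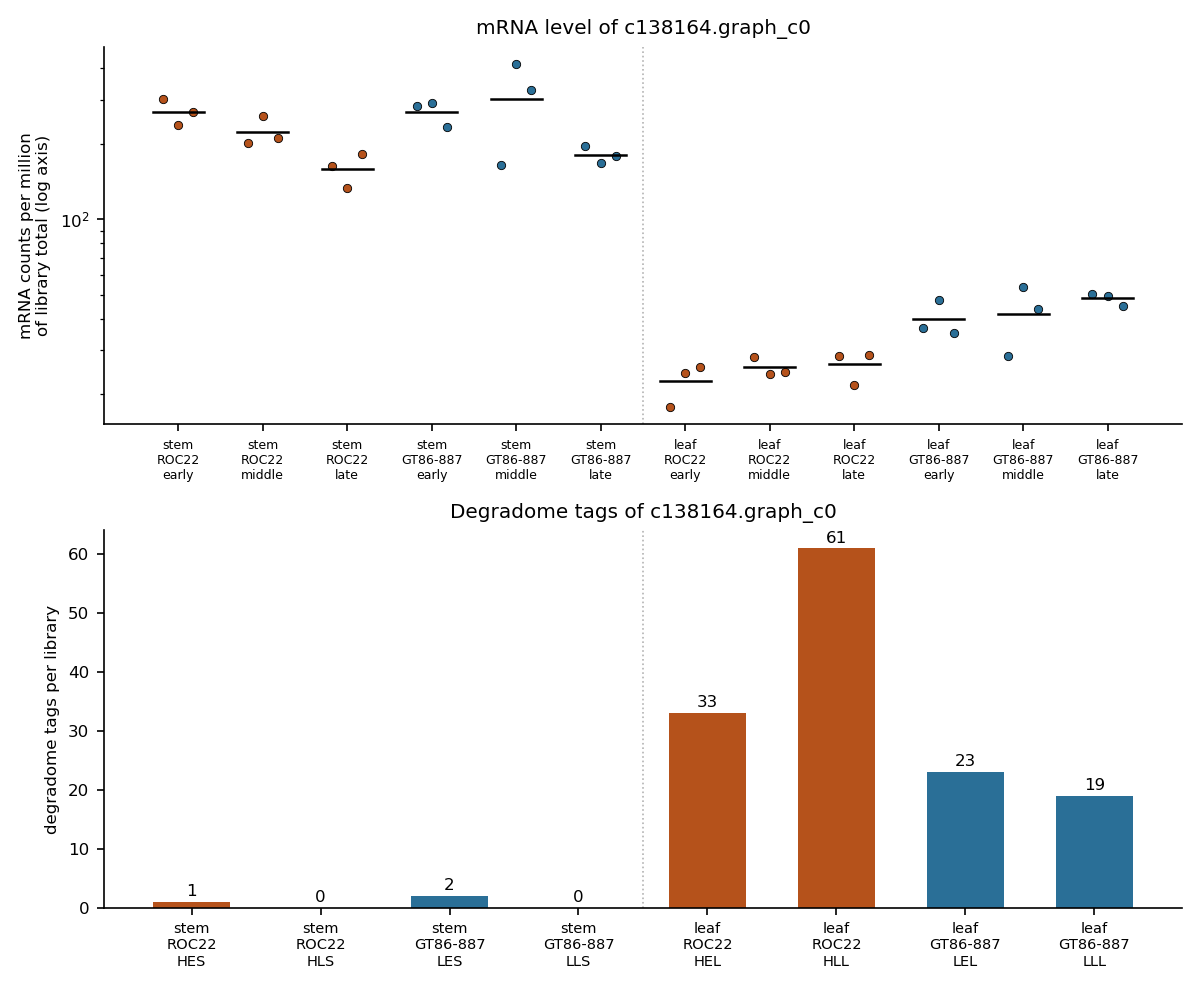
Upper panel, mRNA level of c138164.graph_c0 in 36 libraries, in CPM of the library total on a log axis, with points for libraries and bars for means of 3; lower panel, its degradome tags in 8 libraries, labelled by title code. The mRNA is at 133 to 416 CPM in stem and 17.8 to 53.7 CPM in leaf, while the tags are 0 to 2 in stem libraries and 19 to 61 in leaf libraries.

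Set side by side, c138164.graph_c0 had a median of 222 CPM of mRNA and 3 degradome tags in stem, where miR166-y had a median of 2.63% of small RNA counts. In leaf it had 28.6 CPM and 136 tags, with miR166-y at 64.5%. The median leaf share of tags was 82.4% over the 177 unigenes with at least 10 tags. Of the other paired unigenes, c138610.graph_c0 went the other way (log2 -0.82, stem minus leaf) and c135176.graph_c1 differed by 0.13. Between genotypes in leaf, c138164.graph_c0 differed by -0.82 (ROC22 minus GT86-887). There miR166-y differed by 0.20 at the late and 0.07 at the early stage, neither called. No test joins the 3 assays, and the labels tie none of their libraries to a shared plant.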

How the data were processed

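Per the labels' protocols, RNA came from Trizol extracts, small RNA of 18-30 nt was taken from a polyacrylamide gel, and degradome fragments were those whose 5′ monophosphate took an adaptor. The authors deposited whole-number counts per miRNA entry with, per the file headers, TPM values, and counts per unigene with FPKM values. The TPM values, not used here, imply library totals of 0.996 to 1.00 times the summed counts. The deposited degradome table holds tag numbers and, per the file headers, a normalised score equal to them. Aligner, assembly, miRNA database and target caller are points not given in the sources used here. No reference genome was used, and sequences are those of the deposited table.

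The counts as deposited were fitted in edgeR 4.0.16 (R 4.3.3; TMM, filterByExpr, 1 coefficient per group) by quasi-likelihood, and p-values were adjusted over all features by Benjamini-Hochberg. Each tissue had its own fit for genotype and stage, and both tissues shared one for stem minus leaf. Genotype contrasts of mRNA average over the 3 stages. Levels are plain shares or CPM of the library total, and log2 differences are TMM-scaled. Ratios were log2((count + 0.5)/(count + 0.5)), tested by 2-sided permutation in SciPy 1.17.1, exact up to 9 libraries against 9 and otherwise with 100000 resamples. FPKM was tested as log2 without a pseudocount.

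Alternatives were DESeq2 1.42.0, library totals, TMM without miR166-y and miR396-x, no filter, a replicate block, a pseudocount of 1 and leaving out each replicate number or, for small RNA, each library. Chosen after seeing the data were the ratio of miR165-y, the tissue-by-genotype contrast of the unigenes, ratios within genotypes with their leave-outs and the FPKM comparison. The fits were first tested on simulated data.

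Named were, by rule, all members and paired unigenes, entries sharing a seed with or lying within 2 edits of a member (the 1 such entry that is no member is not reported here), the 3 other entries closest to miR166-y in pattern, and per comparison the entry of 6 listed families whose adjusted p was smallest in each direction. The lower entries of those families between tissues were added after their values were seen. Members and lists were chosen with earlier results of these data known. The rule also found miR165-x, which the planned list of 4 members lacked.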

Additional observations from a re-analysis of the deposited data

Results flagged for a closer look

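The unigene c138164.graph_c0, paired with miR166-y, miR166-z and miR165-y in the degradome, differed between tissues by genotype: stem minus leaf was greater in ROC22 than in GT86-887 by 0.77 on the log2 scale (SE 0.18, adjusted p = 0.00180, edgeR's quasi-likelihood test of the difference itself). The call was lost without replicate 3 (0.72, adjusted p = 0.0994). On deposited FPKM the difference was 0.36 (p = 0.0837, permutation of genotypes within each tissue of 18 libraries, which leaves stage out). FPKM per CPM of this unigene had a median of 0.665 in ROC22 leaf and 0.502 in GT86-887 leaf, and the part of that gap in the result was not tested.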

How the results depend on the processing

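Outside the leave-outs, 232 of 247 recomputed values kept their direction and their side of the threshold and 177 of 194 counts of calls stayed within 1.5 times the reported count. With libraries left out, 900 of 963 values and 409 of 510 counts did. Stem minus leaf was lower for all 5 members in each alternative and leave-out run. Scaling to library totals moved the median of all entries by 1.21 (log2) and DESeq2 by -0.49 in that contrast. For the results below the cause was not tested unless stated. Depth limits the stem values of miR165-x, with 0 to 1 counts per library, and those of miR166-z and miR165-y, with 23 to 118 and 12 to 88.

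DESeq2 called 1 member for stem minus leaf by genotype and 1 by stage (0 with edgeR), 26 entries for late minus early in ROC22 stem (15 with edgeR) and 2 in GT86-887 stem (0 with edgeR). Library totals gave 1 member and 28 entries for stem minus leaf by stage (0 and 50 with TMM), 1 entry for late minus early in GT86-887 stem, and turned miR166-y by stage to -0.49. With them 1 paired unigene was called for late minus early in ROC22 leaf (0 with TMM), 1 in GT86-887 leaf (2 with TMM) and 0 in GT86-887 stem (1 with TMM), where c138164.graph_c0 was at -0.57. With no filter on low counts 6 entries were called for late minus early in GT86-887 stem and 11 for genotype by stage in stem (0 each with the filter), and 0 paired unigenes in GT86-887 leaf. On FPKM the difference of c138164.graph_c0 between tissues by genotype was 0.36.

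Most same-numbered libraries did not deviate together: the median correlation of deviations from group means was -0.006 over 84 small RNA pairs, with 0 of 28 group pairs above 0.1 in every number, and 0.0022 over 198 mRNA pairs, with 1 of 66. Single correlations were above 0.1 in 12 of 84 and 6 of 198 pairs, with highest values of 0.30 and 0.50. Libraries of different numbers were not compared, so whether the number pairs some of the samples was not tested. With a replicate block, 0 members were called for ROC22 minus GT86-887 in late leaf (1 without it), 17 entries for late minus early in ROC22 leaf (26 without it) and 0 in ROC22 stem (15 without it). For late minus early in GT86-887 stem 0 paired unigenes were called, with c138164.graph_c0 at -0.69.

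Leaving out 1 library or 1 replicate of every group gave these lowest and highest values. Entries called numbered 12 to 42 for stem minus leaf by genotype and 14 to 62 by stage, with 0 to 1 members each. In leaf they numbered 9 to 46 for early and 26 to 68 for late ROC22 minus GT86-887, the late ones with 0 to 1 members, 4 to 35 for late minus early in ROC22, 31 to 62 in GT86-887 and 0 to 10 for genotype by stage. In stem they numbered 19 to 49 for early and 26 to 105 for late ROC22 minus GT86-887, the late ones with 0 to 3 members, 0 to 75 for late minus early in ROC22 with 0 to 2 members, 0 to 4 in GT86-887, and 0 to 68 for genotype by stage with 0 to 2 members; the highest count of each stem contrast came without ROC22 stem late replicate 3.

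Unigenes called numbered 3816 to 9361 for stem minus leaf by genotype with 0 to 1 paired ones, 3586 to 10481 for late minus early in ROC22 leaf, 2639 to 9389 in GT86-887 leaf with 0 paired ones, 1382 to 4582 in ROC22 stem and 1104 to 3225 in GT86-887 stem with 0 to 1 paired ones each. The log2 values of c138164.graph_c0 were 0.71 to 0.79 for stem minus leaf by genotype, -0.081 to 0.26 for late minus early in ROC22 leaf, -0.18 to 0.014 for ROC22 minus GT86-887 in stem, -0.94 to -0.82 for late minus early in ROC22 stem and -0.76 to -0.57 in GT86-887 stem.

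Outside stem minus leaf itself, 29 of 55 log2 differences of members turned sign in some setting or leave-out, of which 0 were called. Among those described, they include miR166-y for stem minus leaf by genotype (-0.60 to 0.54) and miR166-x for early ROC22 minus GT86-887 in leaf (-0.19 to 0.55). The log2 ratio of miR166-x to miR166-y, late minus early in stem, ran from -1.52 to -0.76, within ROC22 from -3.09 to -1.70 and within GT86-887 from -0.39 to 0.13. In leaf the ratio of miR166-z ran from -0.0018 to 0.10 for ROC22 minus GT86-887 and -0.012 to 0.089 for late minus early, and that of miR165-y from -0.0075 to 0.24 and from -0.30 to 0.038.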
